A study of Mus musculus with 6 samples.

Results

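The mitochondrial ribosomal protein genes are the nuclear genes whose products, after import into mitochondria, build the ribosome that translates the few messages of mitochondrial DNA. Members were the probe sets whose platform annotation gave exactly 1 symbol beginning with Mrpl or Mrps, followed by a number and at most 1 letter. This rule found 156 probe sets for 76 genes, among 45037 probe sets and 18193 named genes on the array. By symbol, 47 genes belonged to the large subunit and 29 to the small subunit. Where a gene had several probe sets, the one with the highest mean signal over all 6 arrays stood for the gene. No expression difference entered this choice.

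The RNA was that of single whole mouse embryos of embryonic day 8.5: 3 wild types and 3 littermates heterozygous for Tcof1 (Tcof1+/-). It was amplified and hybridised, embryo by embryo, to an Affymetrix whole-genome expression array, whose probe sets each combine several short probes of a transcript into 1 signal. How the Tcof1 allele was made, the strain and the embryos' sex were not stated in the labels. Tcof1 encodes treacle, a nucleolar protein needed for transcription of ribosomal RNA, and heterozygous mutations of it in humans underlie Treacher Collins syndrome.

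Mitochondrial ribosomes descend from bacterial ones, but have lost RNA and gained proteins, so that many of their proteins have no bacterial counterpart. Their RNAs are transcribed inside the mitochondrion by Polrmt, not by RNA polymerase I, the enzyme that treacle serves in the nucleolus. The large subunit forms peptide bonds and is held at the inner membrane, and the small subunit decodes the message. Their products are core subunits of the respiratory chain and of ATP synthase, and inherited defects of several members cause combined respiratory chain deficiency in humans. The comparison asked whether transcripts of these proteins differed in embryos with 1 working copy of Tcof1.

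Signals were deposited on a linear scale in arbitrary units, scaled so that the trimmed mean of every array was 150. Tcof1 gave 382, 393 and 387 in wild types and 222, 179 and 231 in heterozygotes, a log2 difference of -0.88 (SE 0.12, limma adjusted p = 0.0352). This call was lost when any 1 array was left out. All 14 embryonic tissue markers checked were above the filter on low signals. Of 6 extraembryonic or maternal markers 5 were on the array, and 3 of these were above the filter. The summed signal of the yolk sac endoderm genes Afp, Ttr and Apoa1 ranged from 616 to 10890 between embryos, and was lowest in heterozygous embryo 2. The summed signal of the primitive erythroid genes Hbb-bh1 and Klf1 ranged from 173 in heterozygous embryo 1 to 6320 in wild-type embryo 2. For the Gapdh control probe sets, the 3 prime signal exceeded the 5 prime one by a log2 value that grows as RNA is degraded. It was 0.84 to 1.04 in wild types and 0.68 to 0.81 in heterozygotes. For the Actb control probe sets the genotypes overlapped, at 0.74 to 0.84 in wild types and 0.68 to 0.81 in heterozygotes. In whole embryos, fewer cells of a type and less RNA per cell cannot be told apart.

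Of the 76 mitochondrial ribosomal protein genes 0 passed a limma adjusted p under 0.05 between the genotypes, and their differences lay close to 0. All 76 genes passed the filter on low signals, with mean signals between 129 and 2312. Of all 27022 probe sets tested, 22 passed (0.0814%), of which 1 was lower (0.00370%) and 21 were higher (0.0777%) in heterozygotes. At gene level 16 of 12853 genes passed (0.124%), and adjusted p of the members ran from 0.685 to 0.998. On the log2 scale, heterozygote minus wild type, the median difference was 0.0023 over the 47 large subunit genes and -0.016 over the 29 small subunit genes. It was -0.012 over all 12853 genes tested. Of the 76 members 40 were negative (52.6%) and 36 positive, beside 52.7% negative among all genes.

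At an unadjusted p under 0.05, 6 of 76 members were lower (7.89%) and 0 were higher, beside 3.89% of all genes lower and 3.00% higher. The 6 members were Mrps18c, Mrps16, Mrps35 and Mrps21 of the small subunit and Mrpl28 and Mrpl20 of the large subunit. These counts moved with single arrays and with the fit. Without the intensity trend of limma, 0 large and 1 small subunit genes remained. The 2 large subunit genes became 0 without wild-type embryo 1 or 3, 1 without wild-type embryo 2 or heterozygous embryo 1, and 4 without heterozygous embryo 2. The 4 small subunit genes became 1 without wild-type embryo 1 or heterozygous embryo 1 or 3, and 2 without wild-type embryo 2. In 7 members (9.21%) all heterozygotes lay below all wild types, beside 7.31% of all genes. In 5 members (6.58%) all heterozygotes lay above all wild types, beside 5.70% of all genes. The 4 small subunit genes of the first kind made up 13.8% of 29, with 0 of the second kind. In the large subunit the counts were 3 and 5 of 47.

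In the fit with the intensity trend, the precision of the members was high enough to bound most differences. Intervals from the fit without that trend are not given here. The 95% interval of the difference lay within a 1.5-fold change in either direction for 74 of 76 members (97.4%), beside 60.6% of all genes. It lay within 1.2-fold for 29 members (38.2%), beside 13.3% of all genes. Members are brighter than many of the genes they are set beside, and dim probe sets vary more. The median standard error was 0.094 over the members and 0.15 over all genes. The 2 members whose interval reached past 1.5-fold were Mrpl28 and Mrpl33, both of the large subunit and both towards lower values.

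**Figure D1:**
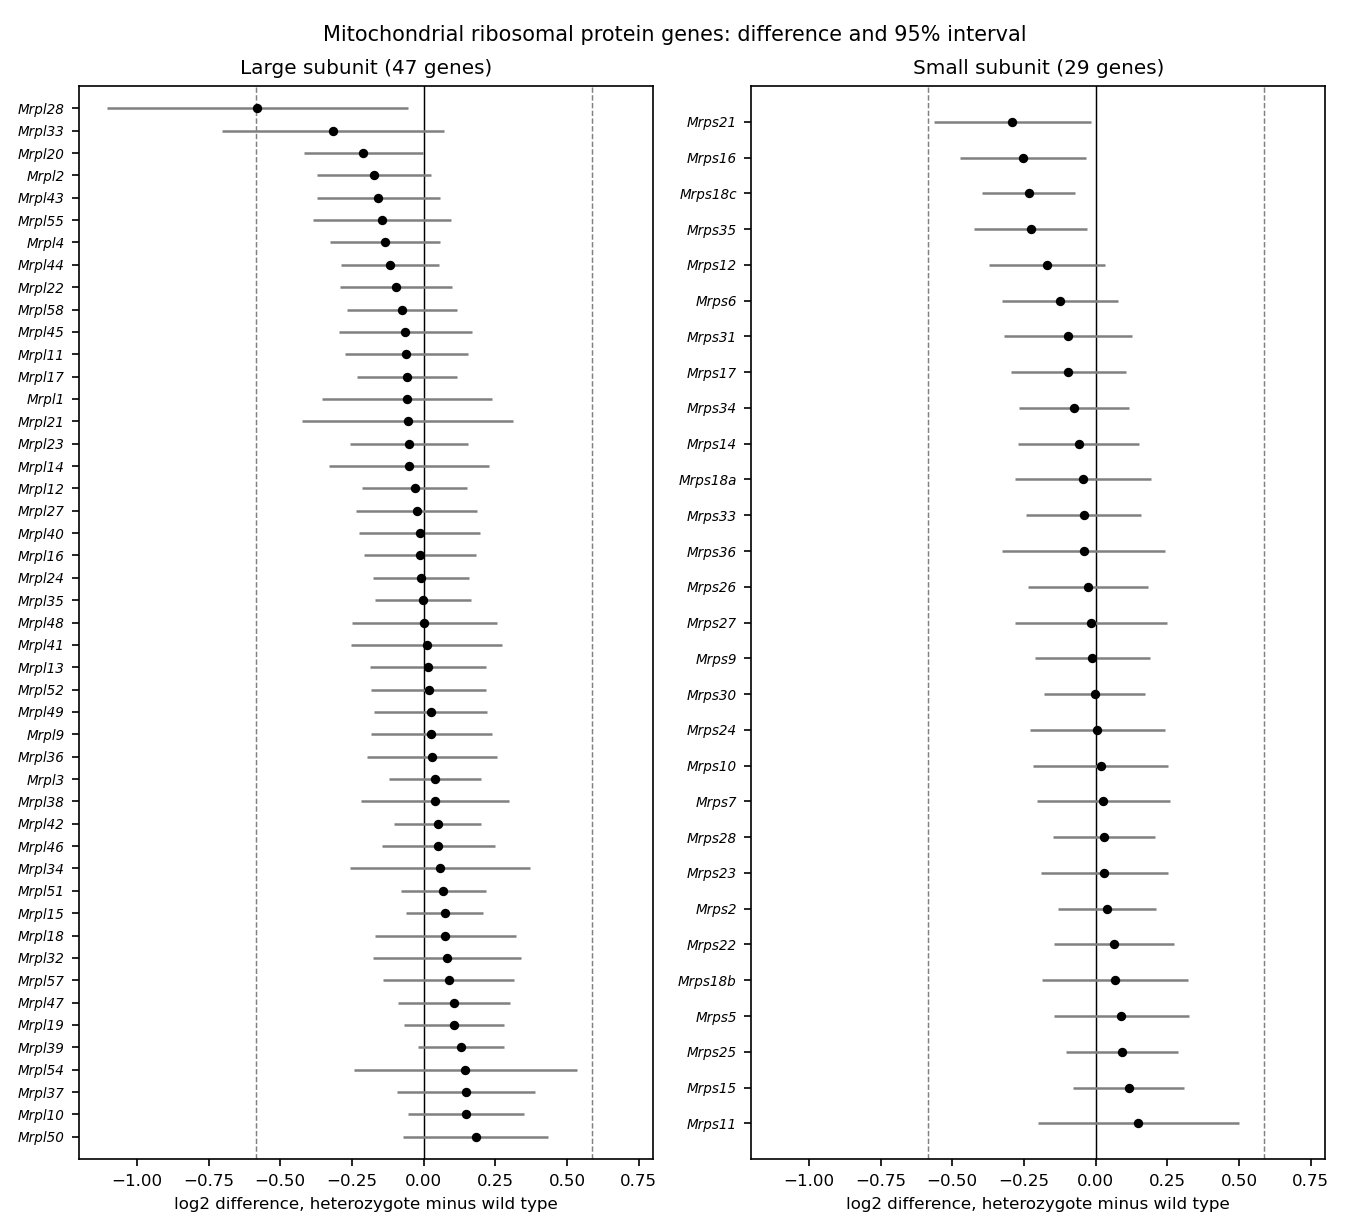
Fitted log2 difference, heterozygote minus wild type (points), with its 95% interval (bars) for the 47 large and 29 small subunit genes, 3 embryos per genotype; dashed lines mark a 1.5-fold change. The points crowd around 0, between -0.58 for Mrpl28 and 0.18 for Mrpl50, and 74 of 76 intervals stay between the dashed lines.

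Many promoters of the members share letters that the choice of members did not use. RefSeq promoter windows (GRCm38.p6), from 250 bases before to 50 after a start site, were found for 67 of the 76 genes, in 73 windows. Of these genes 3 had several windows, each counted. The ETS motif CCGGAAG, read on both strands, was in 25 member windows (34.2%), beside 8.86% of all 32851 windows of that length. ETS motifs are bound by the GA-binding protein, also called nuclear respiratory factor 2. The NRF1 motif, GCGCA and GCGC with any 1 base between them, was in 12 member windows (16.4%) beside 4.60%, and the YY1 motif AAGATGGCG in 8 (11.0%) beside 1.40%. NRF1 and YY1 are transcription factors known to act on many nuclear genes of mitochondrial proteins. Matches to these 3 motifs shared no letters in any window, and 39 member windows (53.4%) held at least 1 of the 3, beside 13.6% of all windows. The GC content differs too, with a median of 58.7% in member windows and 52.7% in all windows. The 32851 windows were counted whether or not their gene was tested here, and no share among tested genes was taken.

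Other motifs gave other shares. The GC box GGGCGG was in 53.4% of member windows beside 35.7%, with letters shared with an ETS match in 2 member windows, and the E-box CACGTG, a motif of Myc and related factors, in 9.59% beside 7.15%. The 7 E-box windows belonged to 5 of the 67 genes, since 3 overlapping windows were those of Mrpl2. The TATA motif TATAAA was in 6.85% beside 13.6%. Members with the ETS motif had a median log2 difference between genotypes of -0.028 (25 genes), and the 42 matched members without it -0.0032. The medians were -0.029 for 12 genes with the NRF1 motif and 0.017 for 8 genes with the YY1 motif. The 5 genes with an E-box, Mrps18c, Mrpl2, Mrpl20, Mrpl36 and Mrpl37, had the most negative median, -0.17, beside -0.011 over the 62 matched members without it; this gap was not tested. These matches are letters in a window and describe no binding.

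**Figure D2:**
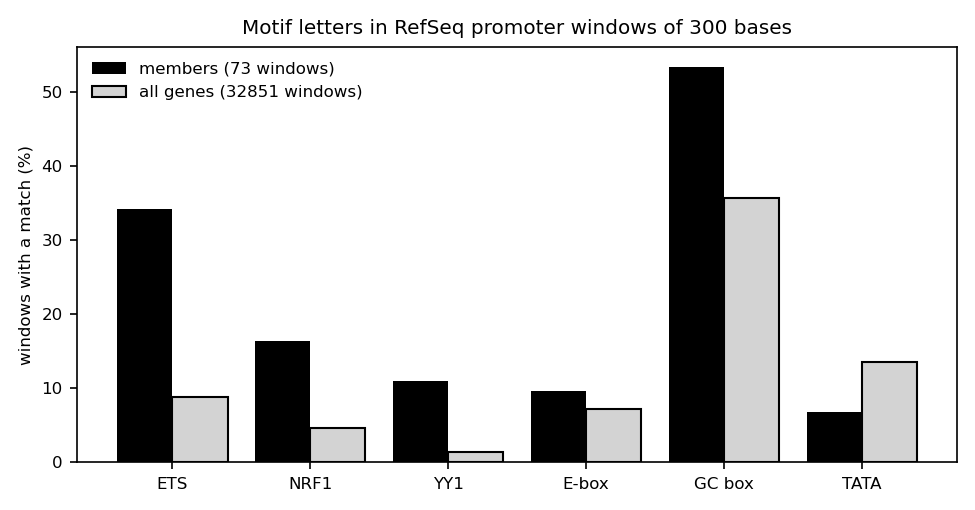
Share of RefSeq promoter windows of 300 bases that hold each motif (y axis, percent), for 73 windows of the members (black) and 32851 windows of all genes (grey). The largest gap in percentage points is at the ETS motif, 34.2% against 8.86%, and TATA is the motif with the lower share in members.

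The 150 bases before the start site are shown for the 6 named members with a single window and a match to the ETS, NRF1 or YY1 motif there, to let the shared letters be seen in place. Capitals mark the motif on either strand, and each sequence runs 5′ to 3′ towards the start site at its right end. Mrps21 (chr3:95871515-95871664, minus strand), Mrpl39 (chr16:84735245-84735394, minus strand) and Mrpl12 (chr11:120484487-120484636, plus strand) hold the NRF1 motif. Mrpl43 (chr19:45006443-45006592, minus strand) and Mrps18a (chr17:46110854-46111003, plus strand) hold the ETS motif, and Mrps11 (chr7:78782981-78783130, plus strand) holds the YY1 motif.
Mrps21: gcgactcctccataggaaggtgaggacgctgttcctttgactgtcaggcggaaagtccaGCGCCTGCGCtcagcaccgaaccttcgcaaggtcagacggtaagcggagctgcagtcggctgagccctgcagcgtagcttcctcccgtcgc
Mrpl39: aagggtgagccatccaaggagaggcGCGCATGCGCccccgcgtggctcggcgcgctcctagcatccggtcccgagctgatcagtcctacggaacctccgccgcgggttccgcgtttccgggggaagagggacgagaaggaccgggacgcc
Mrpl12: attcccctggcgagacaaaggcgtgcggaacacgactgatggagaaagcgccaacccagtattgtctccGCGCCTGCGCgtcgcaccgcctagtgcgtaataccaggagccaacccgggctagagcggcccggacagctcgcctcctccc
Mrpl43: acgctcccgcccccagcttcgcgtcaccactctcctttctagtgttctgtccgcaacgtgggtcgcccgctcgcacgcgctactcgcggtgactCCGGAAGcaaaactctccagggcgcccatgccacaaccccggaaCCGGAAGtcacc
Mrps18a: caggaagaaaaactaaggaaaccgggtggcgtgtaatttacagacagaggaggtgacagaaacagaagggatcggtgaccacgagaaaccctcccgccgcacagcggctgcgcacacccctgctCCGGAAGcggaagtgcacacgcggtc
Mrps11: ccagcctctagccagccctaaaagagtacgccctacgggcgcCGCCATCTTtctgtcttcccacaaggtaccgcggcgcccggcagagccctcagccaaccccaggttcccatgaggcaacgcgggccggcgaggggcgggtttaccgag
The NRF1 motif of Mrpl12 begins 81 bases before the start, that of Mrps21 91 and that of Mrpl39 125 bases before it. Mrpl43 has 2 ETS motifs, which begin 56 and 12 bases before the start, and the motif of Mrps18a begins 26 bases before it. In the limma test over all probe sets 0 of these 6 genes passed.

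In the small subunit, the lowest p belonged to Mrps18c, the member of the bS18 family that holds the place of the bacterial protein. Its signals were 1413, 1357 and 1451 in wild types and 1121, 1218 and 1252 in heterozygotes. All heterozygotes lay below all wild types, with a mean at 85.1% of the wild-type mean. The log2 difference was -0.23 (SE 0.072, 95% interval -0.40 to -0.072), with a limma adjusted p of 0.685.

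Mrps16, whose loss in humans causes a fatal respiratory chain defect, gave 418, 446 and 385 in wild types and 336, 368 and 343 in heterozygotes. The genotypes did not overlap, and the log2 difference was -0.25 (SE 0.098). Mrps35, a subunit without a bacterial counterpart, gave 418, 395 and 397 against 336, 347 and 349, again without overlap. Its log2 difference was -0.23 (SE 0.089). Limma adjusted p were 0.774 for Mrps16 and 0.778 for Mrps35.

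Mrps21, the counterpart of bacterial bS21, with an NRF1 motif in its promoter, gave 634, 719 and 554 in wild types and 470, 594 and 494 in heterozygotes. Heterozygous embryo 2 lay above wild-type embryo 3, so the genotypes overlapped. The log2 difference was -0.29 (SE 0.12, limma adjusted p = 0.784). A second, much dimmer probe set of Mrps21, at 10.9 to 25.8, differed by 0.45 with an SE of 0.38.

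Mrps12, a protein of the decoding centre and the counterpart of the bacterial protein in which streptomycin resistance arises, gave 479, 456 and 423 in wild types. It gave 394, 398 and 412 in heterozygotes, a log2 difference of -0.17 (SE 0.091) without overlap. Mrps6 had mean signals of 1083 ± 85.7 (SD, n = 3) for wild types and 993 ± 78.2 (SD, n = 3) for heterozygotes, with a log2 difference of -0.12. Neither Mrps12 (limma adjusted p = 0.816) nor Mrps6 (0.854) passed.

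Of the small subunit genes with positive differences, the 4 with the smallest p followed. Mrps11, whose promoter holds a YY1 motif, differed by 0.15 (SE 0.16), with signals of 168 to 225 in wild types and 187 to 258 in heterozygotes. Mrps15, an early binder of small subunit RNA in bacteria, differed by 0.12 (SE 0.086), and its dimmer probe sets by -0.047 and -0.26. Mrps25 differed by 0.091 and Mrps5 by 0.090. The dimmer probe sets of Mrps5 were of both signs, from -0.36 to 0.28. On the brightest probe sets the genotypes of these 4 genes overlapped in every case, and limma adjusted p ran from 0.857 to 0.904.

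In the large subunit, the most negative difference was that of Mrpl28, and it rested on 1 array. Its brightest probe set gave 1088, 1027 and 1086 in wild types and 881, 439 and 936 in heterozygotes. The value of 439 in heterozygous embryo 2 stood far below the other 5. The log2 difference was -0.58 (SE 0.23, limma adjusted p = 0.781) and became -0.23 without heterozygous embryo 2. The other probe sets of Mrpl28 did not show that low value: they gave 554 and 475 in heterozygous embryo 2 and differed by -0.16 and -0.11 between genotypes. The brightest one and 1 of the others carry the suffix _x_at, Affymetrix's mark for probes that may also match other transcripts.

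Mrpl20, the counterpart of bL20, gave 599, 590 and 599 in wild types and 462, 545 and 542 in heterozygotes. The genotypes did not overlap, the heterozygous mean was at 86.6% of the wild type, and the log2 difference was -0.21 (SE 0.092, limma adjusted p = 0.793). Mrpl2, of the family that lies near the peptidyl transferase centre, gave 1066, 1080 and 1054 against 833, 1002 and 1011. Its log2 difference was -0.17 (SE 0.089), also without overlap.

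Mrpl33 was the dimmest of the named members, with 154, 128 and 154 in wild types and 117, 143 and 93.5 in heterozygotes. These values overlapped, and the 95% interval of its difference of -0.32 ran from -0.70 to 0.070. With 1 array left out the difference of Mrpl33 ran from -0.46 to -0.16, and the arrays of the first scan day gave -0.12, those of the second -0.71. Mrpl43, a subunit without a bacterial counterpart whose promoter carries the ETS motif, differed by -0.16 (SE 0.096). Mrpl4, of the family that lines the exit tunnel, differed by -0.14 (SE 0.086). Limma adjusted p of Mrpl2, Mrpl33, Mrpl43 and Mrpl4 ran from 0.810 to 0.845.

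**Figure D3:**
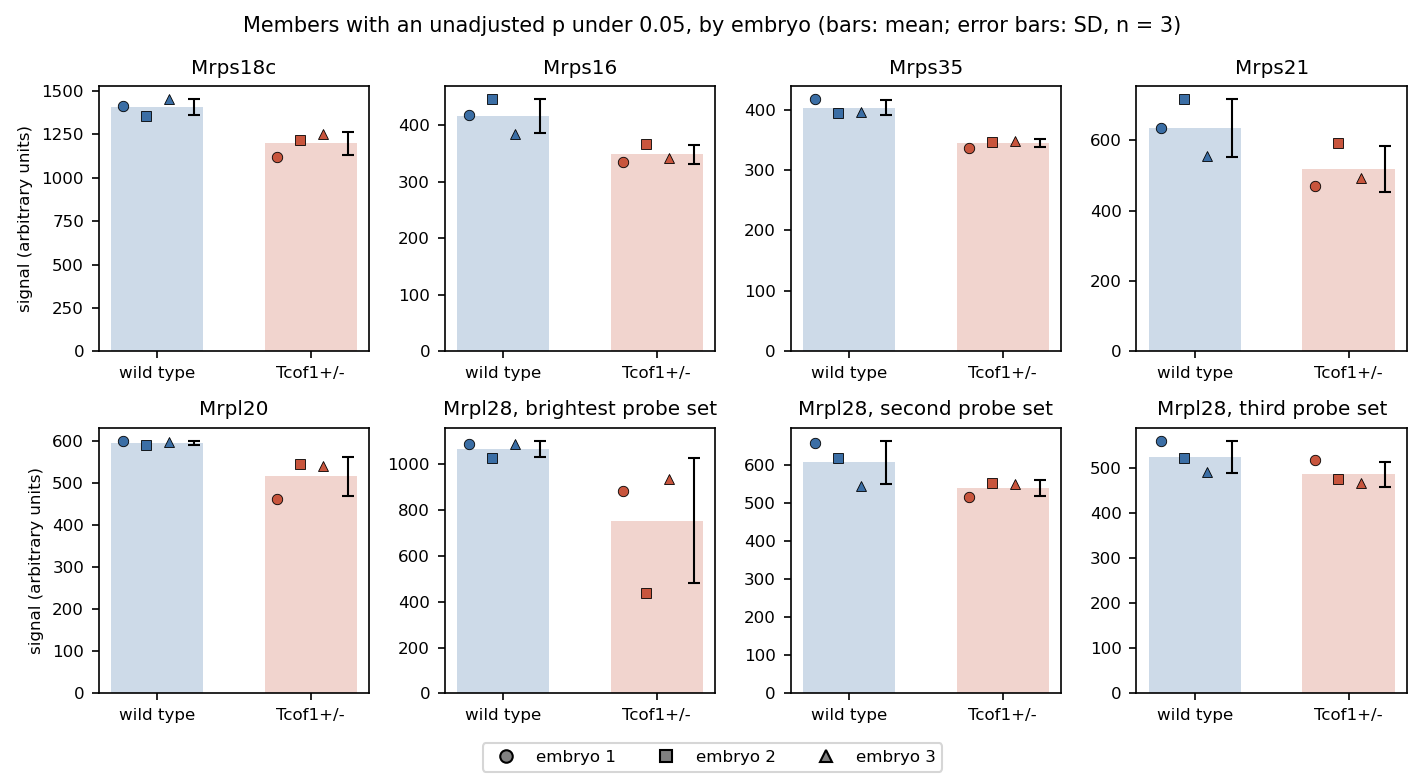
Signal (y axis, arbitrary units, from 0) of the 6 members with an unadjusted p under 0.05, for wild-type (blue) and heterozygous (red) embryos; symbols are embryos, bars the mean and error bars the SD (n = 3), and Mrpl28 has a panel for each of its 3 probe sets. Heterozygous embryo 2 falls to 439 on the brightest Mrpl28 probe set only, and Mrps18c, Mrps16, Mrps35 and Mrpl20 show no overlap between genotypes.

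The large subunit also held the 5 members in which every heterozygote lay above every wild type. Mrpl39, a protein that resembles a threonyl-tRNA synthetase and whose promoter holds an NRF1 motif, gave 2188, 2266 and 2127 in wild types and 2294, 2573 and 2345 in heterozygotes. Its log2 difference was 0.13 (SE 0.067, limma adjusted p = 0.810), and its second probe set differed by -0.040. Mrpl10, at the base of the stalk that recruits translation factors, gave 406, 437 and 408 against 492, 449 and 446. Its log2 difference was 0.15 (SE 0.090).

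Mrpl37 gave 248, 238 and 220 in wild types and 255, 278 and 249 in heterozygotes, a log2 difference of 0.15 (SE 0.11). Mrpl15 (0.073) and Mrpl19 (0.11) completed the group, and both are named because their values did not overlap. Mrpl50, the member with the largest positive difference, gave 455, 429 and 523 against 470, 588 and 539, which overlapped, and differed by 0.18 (SE 0.11). Limma adjusted p of these 5 genes other than Mrpl39 ran from 0.838 to 0.865.

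Some members whose biology reaches beyond the ribosome, or whose place in it departs from their name, were looked at whatever their values. Mrpl12, of the stalk, also binds the mitochondrial RNA polymerase Polrmt. It gave 1226, 1308 and 1103 in wild types and 1240, 1157 and 1155 in heterozygotes, a log2 difference of -0.031 with a 95% interval from -0.21 to 0.15. Mrpl41, which has been linked to p53 in cultured cells, gave 781, 594 and 803 against 687, 749 and 739, a difference of 0.010 with an interval from -0.25 to 0.27. In both genes the genotypes overlapped fully.

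Mammals have 3 proteins of the bS18 family, Mrps18a, Mrps18b and Mrps18c, of which Mrps18a sits in the large subunit. Beside the -0.23 of Mrps18c, Mrps18a differed by -0.043 (SE 0.11; 344 ± 29.7 against 333 ± 20.7, SD, n = 3). Mrps18b differed by 0.067 (SE 0.11; 844 ± 104 against 883 ± 98.5, SD, n = 3). The difference among the 3 family members was not tested. Mrps30, also a large subunit protein despite its name, gave 681 ± 24.1 and 679 ± 28.0 (SD, n = 3), a difference of -0.0039. Mrps36, which belongs to the 2-oxoglutarate dehydrogenase complex and not to the ribosome, differed by -0.042 (SE 0.13). With Mrps18a and Mrps30 moved to the large subunit and Mrps36 left out, the medians were -0.0025 for the large and -0.014 for the small subunit.

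Proteins inherited from bacteria and proteins found only in mitochondrial ribosomes were set side by side, with subunits by symbol. In the large subunit, 10 of 27 genes with a bacterial counterpart were positive and 17 negative, with a median of -0.025. Of the 20 genes without one, 14 were positive and 6 negative, with a median of 0.032. In the small subunit the medians were -0.012 over 17 genes with a counterpart and -0.022 over 12 without. The 12 include Mrps36 and Mrps30, and the 17 include Mrps18a, none of which is a small subunit protein in structures of the ribosome. Of the 6 members with an unadjusted p under 0.05, all but Mrps35 had a bacterial counterpart. This split was made after the values were known, and it was not tested.

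The members' shared level differed between single embryos, most among the wild types. Set against each gene's mean over the 6 embryos, the median over the 76 members was 0.060, 0.044 and -0.072 in wild-type embryos 1, 2 and 3. It was -0.0051, 0.0086 and 0.0093 in heterozygous embryos 1, 2 and 3. In wild-type embryo 3, 55 of 76 members lay below their mean, against 27 in each of the other wild types. The medians thus spanned 0.13 over the embryos, beside 0.029 for the medians of all genes. Scaling every array to the same trimmed mean limits the span of all genes, and medians over few genes vary more. The spans of lists of unlike size are therefore not on equal terms. Respiratory chain genes were low in wild-type embryo 3 as well: 57 of 79 lay below their mean there, with medians of 0.029, 0.034 and -0.059 in the wild types and a span of 0.093. The medians of the 4 mitoribosome subunits outside the Mrp names spanned 0.19, and those of 45 cytosolic ribosomal protein genes 0.080. In the medians over the 76 members, the 3 heterozygotes lay between the highest and the lowest wild type.

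In both subunits the lowest wild-type median was that of embryo 3. Large subunit medians were 0.043, 0.042 and -0.076 in wild-type embryos 1, 2 and 3, and small subunit medians were 0.094, 0.054 and -0.072. In heterozygotes, large subunit medians lay between -0.0051 and 0.024, and small subunit medians between -0.015 and 0.013. In wild-type embryo 3, the summed yolk sac endoderm signal was 6169, the erythroid one 3092 and the Gapdh difference 0.84, each within the range of the other embryos. Their part in the members' lower level there was not tested.

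**Figure D4:**
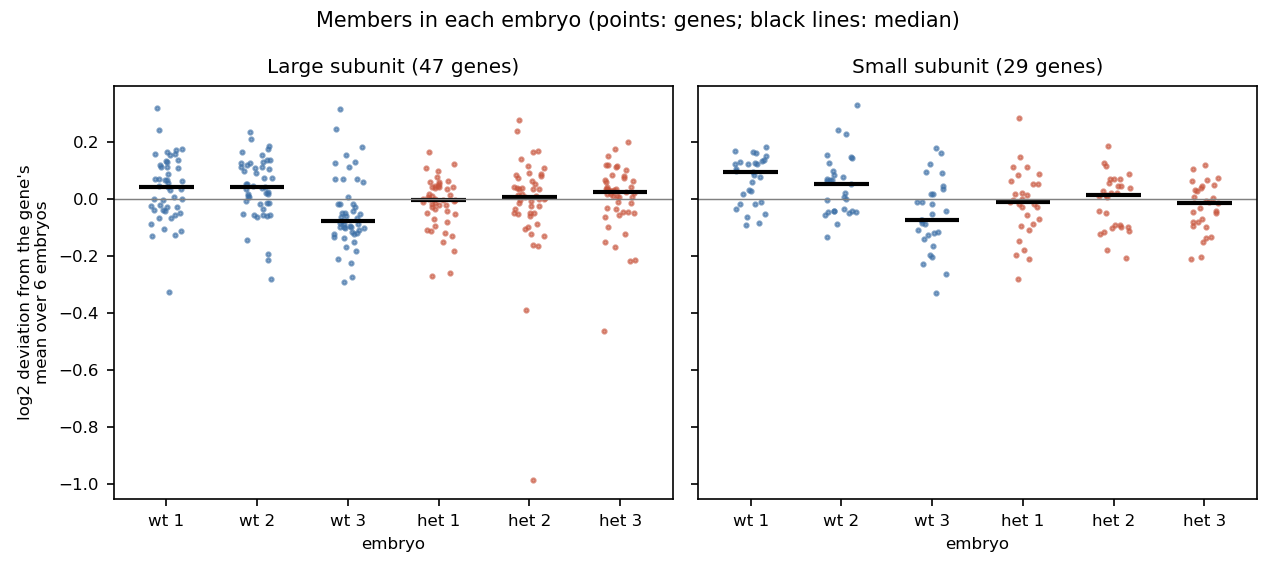
Log2 deviation of each member from its own mean over the 6 embryos (y axis), by embryo, for the 47 large and 29 small subunit genes; black lines are medians. Wild-type embryo 3 has the lowest medians, -0.076 and -0.072, and the lone low point in heterozygous embryo 2 is Mrpl28.

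The arrays were scanned on 2 days, each with both genotypes. On the first day, with 2 embryos of each genotype, the median difference was -0.047 over the large and -0.019 over the small subunit. On the second day, with embryo 3 of each genotype, it was 0.085 and 0.032. The sign of both medians thus turned between days, and the first day medians over all genes were -0.019 and the second day ones 0.0058. Mrps18c (-0.25 and -0.21), Mrps35 (-0.25 and -0.18), Mrps16 (-0.30 and -0.17) and Mrpl20 (-0.24 and -0.14) were negative on both days. So were Mrpl28 (-0.76 and -0.21) and Mrps21 (-0.35 and -0.17). In all of these but Mrps21 every heterozygote lay below every wild type, which fixes the sign on each day beforehand. They were also picked for a small p in the same arrays, so their signs on the 2 days are no further support. The part of the scan day in the members' values was not tested beyond these differences. No fluidics module held both genotypes, so module and genotype cannot be told apart.

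Probe sets of the same gene bounded how far single signals can be read. Of the 156 probe sets, 141 passed the filter, and the 15 that did not had mean signals of at most 13.5. In 35 genes more than 1 probe set was tested, of which 16 had differences of 1 sign and 19 of both signs. Over the 141 tested probe sets, 7 were lower and 1 higher at an unadjusted p under 0.05, beside 3.21% lower and 3.01% higher among all probe sets, and 0 passed in limma. The higher one belonged to Mrpl15, where 1060, 911 and 970 in wild types stood against 1121, 1524 and 1193. Its 1524 came from heterozygous embryo 2, the embryo of the low Mrpl28 value. The brightest Mrpl15 probe set gave 1706 there, beside 1696 and 1697 in the other heterozygotes. Both of these Mrpl15 probe sets carry the suffix _x_at. A probe set of Mrpl11 was the seventh lower one, at -0.15, and its brightest probe set differed by -0.060.

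Other genes of mitochondrial gene expression were likewise without a call, with 0 genes past the limma adjusted p in each of 6 lists. These lists were known subunits outside the Mrp names, assembly factors, translation factors, aminoacyl-tRNA synthetases, genes of mitochondrial DNA expression and regulators of mitochondrial biogenesis. At an unadjusted p under 0.05, 2 of 21 assembly factor genes were lower and 1 was higher, beside 3.89% and 3.00% of all genes. In the other 5 lists 0 were either. Malsu1, which keeps the subunits from joining too early, gave 395, 383 and 311 in wild types and 291, 275 and 292 in heterozygotes. Its genotypes did not overlap, and the log2 difference was -0.34 (SE 0.11, limma adjusted p = 0.731). All heterozygotes lay below all wild types in 3 of the 21 assembly factor genes, beside 7.31% of all genes. Mrm2, a methyltransferase of the large mitochondrial ribosomal RNA, gave 72.0, 69.4 and 83.9 against 83.8, 119 and 112, which overlapped. It differed by 0.46 (SE 0.18, limma adjusted p = 0.774).

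The polymerase and the regulators of mitochondrial gene expression had differences that did not pass either. Polrmt, the polymerase that makes mitochondrial ribosomal RNA, had a mean of 302 ± 29.9 for wild types and 257 ± 37.6 for heterozygotes (SD, n = 3; limma adjusted p = 0.824). Gabpb1, a subunit of the GA-binding protein, was at 242 ± 7.79 and 207 ± 33.4 (SD, n = 3), and Ppargc1a, a coactivator of mitochondrial biogenesis, at 35.6 ± 6.33 and 48.4 ± 5.97 (SD, n = 3). Their limma adjusted p were 0.824 and 0.810. Mterf3, of mitochondrial transcription termination factors, differed by 0.095 (SE 0.088).

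Factors of mitochondrial translation followed. Tsfm, the exchange factor of mitochondrial elongation factor Tu, differed by 0.23 and Gfm2, of ribosome recycling, by 0.20. The synthetase genes Aars2 and Fars2 differed by 0.40 and -0.21. Dap3, a GTP-binding small subunit protein, and Chchd1, another small subunit protein, differed by -0.13 and -0.081. Limma adjusted p of these 6 genes ran from 0.824 to 0.904.

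The cytosolic ribosomal proteins and the respiratory chain subunits, nuclear genes next in function to the members, had no call either. Of 45 tested cytosolic ribosomal protein genes 33 were positive and 12 negative, with a median of 0.049, which became -0.0019 under quantile normalization. At an unadjusted p under 0.05, 2 were higher (4.44%, beside 3.00% of all genes) and 0 lower, and in 9 (20.0%, beside 5.70%) all heterozygotes lay above all wild types. The 2 were Rps27l, a target of p53 (2266 ± 359 against 2953 ± 253, SD, n = 3; log2 0.39), and Rps9 (log2 0.14), with limma adjusted p of 0.653 and 0.774. Of 79 respiratory chain genes 34 were positive and 45 negative, with a median of -0.021. At an unadjusted p under 0.05, 7 were higher (8.86%, beside 3.00% of all genes) and 4 lower (5.06%, beside 3.89%). In 12 of the 79 (15.2%, beside 5.70% of all genes) all heterozygotes lay above all wild types, and in 6 (7.59%, beside 7.31%) below. The median turned positive with Xist as a covariate (0.011) and without wild-type embryo 1 (0.014) or 2 (0.017). In that list, Ndufb6 of complex I differed by 0.30 and Cox7a2l, a factor of supercomplex assembly, by -0.27, with limma adjusted p of 0.584 and 0.655. The lists were described by these counts, and no test set them against the members.

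**Figure D5:**
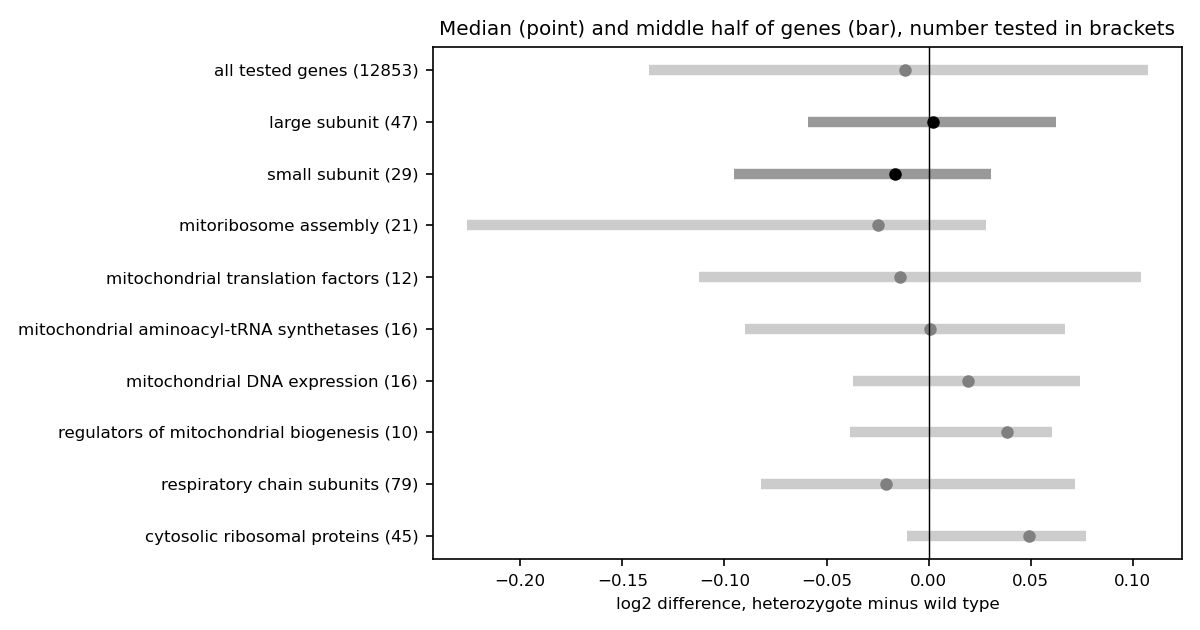
Median (point) and middle 50% (bar) of the log2 difference, heterozygote minus wild type, for the large and small subunit (black), related lists and all tested genes (grey), with the number of genes in brackets. The medians drawn lie between -0.025 for mitoribosome assembly and 0.049 for cytosolic ribosomal proteins, which becomes -0.0019 under quantile normalization. The 4 mitoribosome subunits outside the Mrp names, with a median of -0.096, are not drawn.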

How the data were processed

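Total RNA (100 ng) of single embryos was amplified in 2 cycles, and 20 µg of biotinylated cRNA was hybridised per array, per the labels' protocols. Each probe set has 1 intensity for each array in the deposited table, on a linear scale. GCOS, Affymetrix software, is named in the submitters' processing notes; for its version, signal algorithm and any genome build, nothing is given in the sources used here. Equal trimmed means (2%) of 150, found from the values, hide any difference in total brightness. Scan day and fluidics module were read per the file headers.

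Of 45101 probe sets 64 controls were left out. Intensities became log2(signal + 1.87), where 1.87 is their 10th percentile, probe sets in the lowest 40% by mean were dropped, and 27022 were fitted with limma 3.58.1 (lmFit, eBayes with intensity trend) in R 4.3.3, two-sided, genotype as sole term, with Benjamini-Hochberg adjustment at 0.05 over all of them. Fold changes on this scale understate those of dim genes. The 3 arrays per genotype limit the precision. The fit was tested on simulated data. Symbols came from the platform annotation (34945 probe sets with 1 symbol, 932 with several, 9160 with none), and the RefSeq table of GRCm38.p6 changed 0. Probe sets with several symbols left out Mrpl30 and Mrpl53.

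The members and lists were chosen with earlier results of these data known. Named were, in each subunit, the 6 negative and 4 positive members with the smallest p, 7 members of special interest, members whose tested probe sets differed in sign with an unadjusted p under 0.05, and the 2 genes with the smallest p of each related list; others are said to be named for their values. The split by bacterial counterpart and the motifs were added after values were seen. Rps19bp1 encodes no ribosomal protein and was taken out of its list. Same-numbered embryos were not paired by the labels, and figures were drawn with matplotlib 3.10.9.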

Additional observations from a re-analysis of the deposited data

How the results depend on the processing

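Under all alternatives run (pseudocount, normalization, filter, variance prior, array weights, blocks, covariate, single arrays left out, probe sets averaged, subunits by structure), 0 large and 0 small subunit members passed. Related genes and named members were run in 18 of these 20 alternatives, all but averaged probe sets and subunits by structure; 0 related genes passed, and the smallest adjusted p of a named member was 0.548. The count over all probe sets, 22, became 9 with Xist as a covariate, 12 on the first scan day alone, 0 without the intensity trend, 10 with the replicate block, 14 with scan day as a block, and 8 to 20 with 1 array left out. The Tcof1 difference no longer passed with Xist as a covariate (-0.86), on the first scan day alone (-0.95), and, at -0.88, without the intensity trend, with the replicate block or with the scan day block, nor with 1 array left out (-0.95 to -0.77); the cause was not tested. Same-numbered embryos did not deviate together (correlations -0.079, -0.105 and -0.024), so the replicate block shows no pairing.

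The large subunit median moved to -0.047 on the first scan day alone. With 1 array left out it ran from -0.044 to 0.024, and the small subunit median from -0.066 to 0.0067. Members lower at an unadjusted p under 0.05, 2 and 4, numbered 0 to 4 and 1 to 3 with 1 array left out. Under the other alternatives they numbered 0 to 2 and 1 to 4. Without the intensity trend they were 0 and 1, and with Xist as a covariate 2 and 2. Of 26 named members 19 kept their sign in the 18 alternatives run for them. With Xist as a covariate the sign turned in Mrpl12 (0.017), Mrpl41 (-0.049), Mrps18a (0.0092), Mrps30 (0.0033) and Mrps36 (0.0100), with array weights in Mrpl41 (-0.015), and on the first scan day in Mrps11 (-0.00063) and Mrps30 (0.023). With 1 array left out, Mrpl12 ran from -0.098 to 0.025, Mrpl41 from -0.13 to 0.089, Mrps18a from -0.11 to 0.0067, Mrps18b from -0.030 to 0.15, Mrps30 from -0.028 to 0.030 and Mrps36 from -0.18 to 0.039. Among members that kept their sign, or turned it only on the first scan day, differences with 1 array left out ran from -0.78 to -0.23 in Mrpl28, -0.22 to -0.083 in Mrpl2, -0.25 to -0.13 in Mrpl20, -0.23 to -0.091 in Mrpl43, -0.19 to -0.087 in Mrpl4 and -0.19 to -0.058 in Mrps6. They ran from 0.042 to 0.18 in Mrps15, 0.021 to 0.27 in Mrps11, 0.039 to 0.15 in Mrps5, 0.058 to 0.14 in Mrps25, 0.081 to 0.16 in Mrpl39 and 0.11 to 0.27 in Mrpl50.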
